A study of Rattus norvegicus with 288 samples.

Results

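Livers of male rats killed 6 h after 1 oral dose of sunitinib were compared with livers of rats given sterile water. The 8 treated arrays were those labelled with sunitinib as the second agent and the 8 control arrays those labelled with sterile water, in liver at 6 h, out of 288 arrays in the series, and the comparison was blocked on the first agent and on the array set. The study asked how combinations of anticancer drugs with shared target organs act on gene expression in rat bone marrow, heart and liver. Each rat received a first agent by vein and 30 min later a second agent by mouth, and was killed at 1, 6 or 24 h, with 4 rats in each group. RNA of every tissue was hybridised to Affymetrix whole-genome rat expression arrays, on which probe sets near the ends of transcripts report their level, and the values are log2 RMA signals. A difference of 1 on this scale is a 2-fold change.

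The 16 rats were Sprague-Dawley males of 7-8 weeks that carried a cannula in the femoral vein. Of the 8 treated rats, 4 received the vehicle of temsirolimus (labelled TEM_vehicle) and 4 received temsirolimus at 0.3 mg/kg as first agent, and all 8 then received sunitinib at 5 mg/kg. The 8 control rats were split in the same way and then received sterile water, which was the solvent of sunitinib (dosed as its malate salt). The rats were fed freely, and pieces of the left lateral and median liver lobes were taken. The array identifiers in the study's sample sheet fall into 2 runs, called array sets here, and each set holds the 2 lower or the 2 higher rat numbers of every group. Rats were also dosed on 2 consecutive days, 2 of each group a day, and whether the array sets are the dosing days cannot be told from the sources used here. Nor do they give the hour of day at which the rats were killed.

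Sunitinib is an oral inhibitor of receptor tyrosine kinases, among them the VEGF receptors of endothelial cells, the PDGF receptors of pericytes and stellate cells, and KIT, FLT3, CSF1R and RET. In the liver, VEGF made by hepatocytes acts on the fenestrated endothelium of the sinusoids, and VEGF receptor 2 signalling controls a set of endothelial genes, Esm1 among them. Temsirolimus inhibits the mTOR complex 1 kinase, and sorafenib, also given in the series, inhibits VEGF and PDGF receptors and RAF kinases.

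The arrays had the markers of liver. Mean signals were 15.27 after sunitinib and 15.26 after water for Alb (albumin), with Apoa1 at 14.60 and 14.57 and Ttr (transthyretin) at 14.92 and 14.91. Pecam1 of endothelium (8.21 and 8.25), Stab2 of sinusoids (10.13 and 10.32) and Clec4f of Kupffer cells (12.40 and 12.25) were also well measured, and Cdh5 was not among the genes tested. The mean signals of 11 marker lists for liver and blood cell types overlapped between treated and control rats in every list. The 3′ to 5′ signal ratio, a measure of RNA integrity, was 1.81 to 2.01 for Actb and 1.27 to 1.36 for Gapdh over the 16 arrays. By the limits the study's methods name as usual, the first is within and the second slightly above. The arrays farthest from their own group were those of rats 1M9 (TEM_vehicle then water) and 7M76 (TEM_vehicle then sunitinib), and leaving out both together was an alternative.

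Esm1 rose and Fam167b fell in the livers of sunitinib-treated rats, and these were the 2 genes of 14218 (0.0141%) that passed an adjusted p of 0.05 in limma's moderated test. Esm1 encodes endocan, a proteoglycan that endothelial cells secrete. Fam167b encodes a protein whose role is not well known. At an unadjusted p under 0.05, 560 genes (3.94%) were higher and 429 (3.02%) lower after sunitinib, 989 (6.96%) in all, and the median difference over all genes was −0.003.

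To show where these genes start, the promoters of both are given from RefSeq (rat assembly GRCr8), from 250 bases before to 50 bases after the start. That of Esm1 lies at chr2:46609003-46609302 on the + strand and that of Fam167b at chr5:147206574-147206873 on the − strand. Both were searched on both strands for CACGTG (an E-box, held by 6.42% of 33469 rat promoters), CGGAAGT (6.32%), GTAAACA (3.78%) and TGACGTC (3.22%). Capitals mark a match.

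Esm1: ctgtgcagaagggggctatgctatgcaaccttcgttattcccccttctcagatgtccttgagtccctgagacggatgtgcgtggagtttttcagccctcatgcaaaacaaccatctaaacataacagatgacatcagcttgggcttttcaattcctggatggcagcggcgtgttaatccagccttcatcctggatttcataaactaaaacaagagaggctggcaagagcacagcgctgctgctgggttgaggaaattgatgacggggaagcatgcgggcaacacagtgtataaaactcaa

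Fam167b: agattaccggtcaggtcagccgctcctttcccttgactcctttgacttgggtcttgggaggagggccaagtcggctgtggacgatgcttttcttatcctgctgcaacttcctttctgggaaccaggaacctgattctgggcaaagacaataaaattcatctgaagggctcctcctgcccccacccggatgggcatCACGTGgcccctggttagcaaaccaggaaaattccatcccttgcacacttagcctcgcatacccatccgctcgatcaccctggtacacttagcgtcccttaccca

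Fam167b held 1 E-box, whose first base lies 55 bases before the start, and Esm1 held none of the 4 motifs. Of the 15 genes with the smallest p, 11 had a promoter in the table, and Fam167b was the single one with an E-box. None of the 11 held any of the other motifs. A match describes the letters of the window only.

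Esm1 signal in the 4 rats given TEM_vehicle then sunitinib was 6.00, 5.18, 6.01 and 6.67, and in the 4 given temsirolimus then sunitinib 6.99, 5.97, 6.61 and 6.61. It was 5.17, 4.84, 4.88 and 4.92 after TEM_vehicle then water and 4.71, 5.45, 4.76 and 5.06 after temsirolimus then water. All treated rats but 7M76 (5.18) lay above every control rat, and the highest control was 3M28 (5.45). The mean was 6.25 ± 0.58 (SD, n = 8) against 4.97 ± 0.25 (SD, n = 8). The fitted rise was 1.28 ± 0.19 (SE) on the log2 scale, 2.43-fold, with a 95% interval of 0.87 to 1.69 and an adjusted p of 0.0408 (limma).

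Fam167b signal ran from 8.59 to 9.39 in the treated rats (median 8.80) and from 9.32 to 9.69 in the controls (median 9.52). The groups met only at rat 7M82 (9.39), whose value was above those of the control rats 3M34 and 3M28. The mean was 8.87 ± 0.24 (SD, n = 8) against 9.52 ± 0.14 (SD, n = 8). Fam167b fell by 0.65 on the log2 scale (SE 0.09, 95% interval −0.84 to −0.47), to 0.635 of its control level, with an adjusted p of 0.0224 (limma). In an exact two-sided permutation test within blocks of first agent and array set, both genes reached p = 0.00154. This is the smallest value that the 1296 arrangements can give. Of the 15 genes with the smallest p in limma, Manba, Dysf, Foxa1 and Plgrkt reached it too, and these did not pass the adjusted limma test. All were chosen by their p on the same arrays, so the permutation test gives no separate support.

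**Figure D1:**
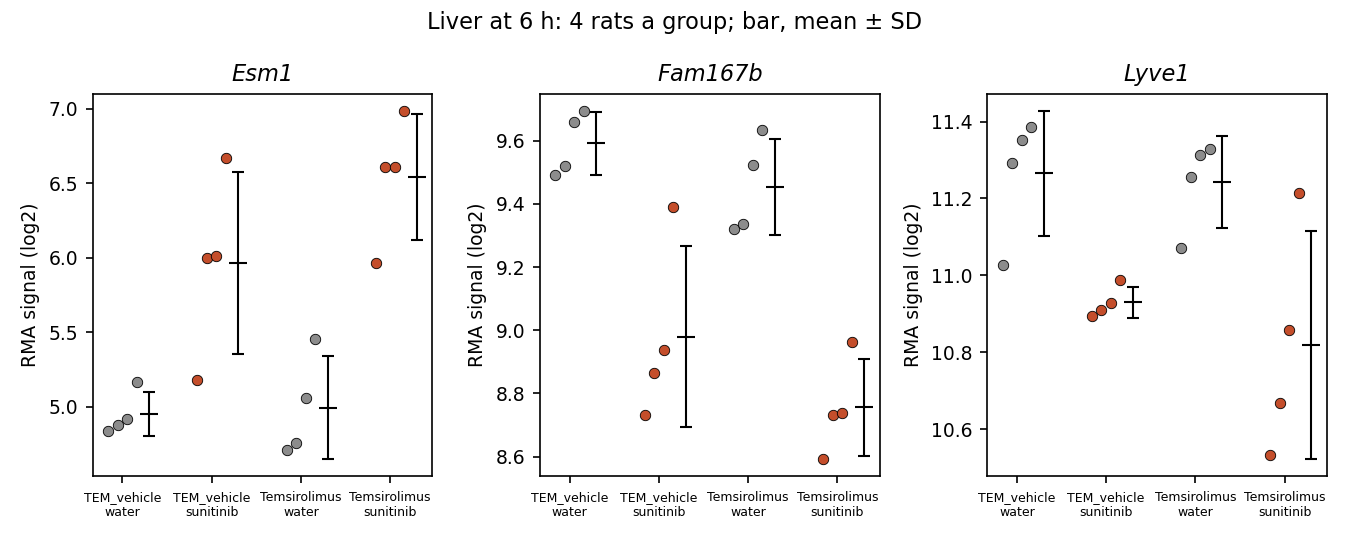
Log2 RMA signal of Esm1, Fam167b and Lyve1 in each liver at 6 h (grey, water; red, sunitinib; 4 rats in each group), with the group mean and SD as a bar. Esm1 of rat 7M76 (5.18) lies near the controls, and Fam167b of rat 7M82 (9.39) lies among them.

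Neither call was firm against single rats. Fam167b no longer passed when any of 8 of the 16 rats was left out (1M9, 7M75, 7M81, 3M27, 3M33, 5M52, 5M57 or 5M58), with adjusted p up to 0.0928 and differences of −0.73 to −0.62. Esm1 passed only when 1M3, 7M76 or 3M28 was the rat left out, with differences of 1.17 to 1.42 and adjusted p up to 0.151 over the 16 fits (limma). Without 1M9 and 7M76 together 8 genes passed, both of these among them.

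Lyve1, the hyaluronan receptor of sinusoidal and lymphatic endothelium, is read by 2 probe sets, and they gave different calls. On the brighter one, used for the gene, signal was 10.53 to 11.21 (median 10.90) after sunitinib and 11.03 to 11.39 (median 11.30) after water, a difference of −0.38 ± 0.08 with adjusted p = 0.442 (limma). On the second, signal was 10.32 to 10.97 (median 10.71) against 11.03 to 11.35 (median 11.20), so that every treated rat was below every control. The difference there was −0.50 ± 0.07 with adjusted p = 0.0164 over 20832 probe sets (limma), of which 3 passed in all, with those of Esm1 and Fam167b.

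The other genes among the 15 with the smallest p did not pass, and are given as values. Manba, the lysosomal beta-mannosidase, came next after Esm1, with signals of 8.96 to 9.52 against 8.77 to 9.06 and a difference of 0.35 ± 0.06 (adjusted p = 0.142, limma). It passed without rat 7M76 (adjusted p = 0.0263, limma), without 1M9 and 7M76 together (0.0418) and with array weights (0.00816). Dysf (dysferlin, a membrane repair protein) had 7.33 to 7.74 against 7.70 to 8.44, a difference of −0.41 ± 0.08 (adjusted p = 0.403, limma). In both genes the ranges of treated and control rats overlapped. For Manba, treated rat 7M76 (8.96) lay below the controls 1M10, 3M33, 3M28 and 3M34 (8.98 to 9.06). For Dysf, the ranges met only where treated rat 7M81 (7.74) lay above control 3M34 (7.70). For the remaining 11 the adjusted p was 0.442 to 0.547 (limma).

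Among these 11, differences above 0 were those of Arhgef26 (0.66 ± 0.15), Foxa1, a liver transcription factor (0.46 ± 0.10), Hey1, a Notch and VEGF target in endothelium (0.45 ± 0.11), and Fbxo30, a ubiquitin ligase subunit (0.41 ± 0.09). Dnaaf10 (0.32 ± 0.07), Mettl15 (0.31 ± 0.07), the plasminogen receptor gene Plgrkt (0.28 ± 0.07) and the flavin monooxygenase gene Fmo4 (0.24 ± 0.05) were on the same side. Those below 0 were Plek (pleckstrin, a protein of platelets and leukocytes, −0.55 ± 0.12), Irf2bp2, a transcriptional corepressor (−0.36 ± 0.08), and Lyve1. All 15 had the same sign after TEM_vehicle and after temsirolimus. They were chosen by a fit that pools both first agents, which favours a shared sign, so this gives no separate support.

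Arhgef26 signal was 8.42 to 9.39 (median 8.64) after sunitinib and 7.81 to 8.45 (median 8.09) after water, so that the highest control lay just above the lowest treated rat. Its difference was 1.03 after TEM_vehicle and 0.30 after temsirolimus. Hey1 signal was 7.46 to 8.27 (median 7.87) against 7.17 to 7.79 (median 7.33), with differences of 0.21 and 0.69 in the same order. Hey1 passed the test in a fit over all 96 liver arrays, with array weights, and without rats 1M9 and 7M76. Arhgef26, Plek and Fbxo30 passed over 96 arrays too, Arhgef26 also over the 32 liver arrays at 6 h and Plek also with array weights.

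In 3 genes (0.0211% of those tested) the 8 treated and the 8 control rats did not overlap, and none of these passed the test. They were Zc3h12a (regnase-1, an RNase that degrades inflammatory mRNAs, difference −0.17 ± 0.04, adjusted p = 0.554, limma), Slc16a8, a lactate transporter (−0.14), and LOC102556108 (−0.15). All 3 were named after their values were seen. Their mean signals were low, 6.04 after sunitinib against 6.21 after water for Zc3h12a, 5.10 against 5.24 for Slc16a8 and 4.31 against 4.46 for LOC102556108. Slc16a8 and LOC102556108 lie below the low-signal filter of 6.

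**Figure D2:**
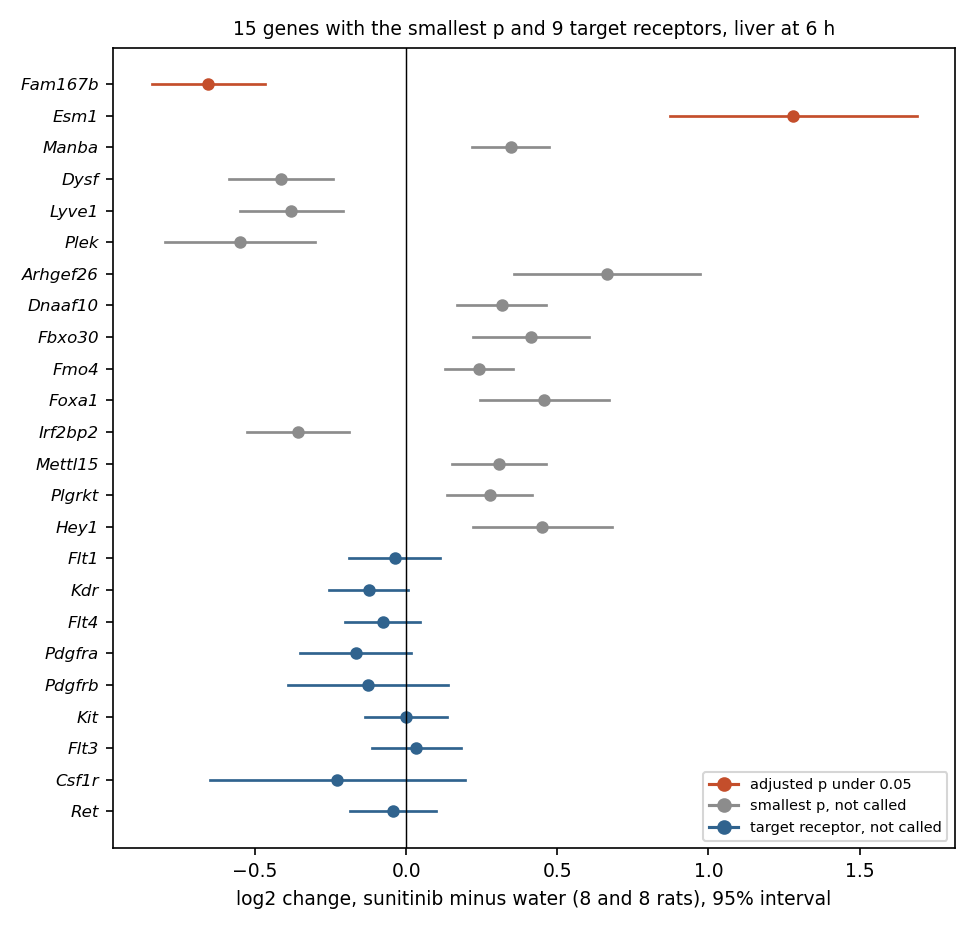
Log2 difference, sunitinib minus water, in liver at 6 h for the 15 genes with the smallest p and the 9 receptors that sunitinib targets. Points are the fitted difference from 8 and 8 rats and lines its 95% interval. Red points passed the test, and every receptor interval (blue) includes 0.

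None of the 9 genes for receptors that sunitinib inhibits passed the test or reached an unadjusted p of 0.05. For Kdr, VEGF receptor 2, signal was 10.73 to 11.09 (median 10.98) after sunitinib and 10.95 to 11.31 (median 11.07) after water, and the ranges overlapped. Its difference was −0.12 (95% interval −0.26 to 0.01). The intervals were −0.19 to 0.11 for Flt1 (VEGF receptor 1), −0.20 to 0.05 for Flt4 (VEGF receptor 3), −0.35 to 0.02 for Pdgfra and −0.39 to 0.14 for Pdgfrb, the PDGF receptors. They were −0.14 to 0.14 for Kit, −0.11 to 0.18 for Flt3, −0.65 to 0.19 for Csf1r, the receptor of macrophage growth factors, and −0.18 to 0.10 for Ret. Differences of the size seen for Esm1 lay outside all 9 intervals. The exact permutation p of the 9 genes (n = 8 and 8) ran from 0.0525 to 0.995.

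Of 14 ligands and co-receptors of these receptors 1 was higher and 3 lower at an unadjusted p under 0.05, and none passed. Of all genes 3.94% were higher and 3.02% lower at this threshold, the background for each list count in liver at 6 h. Kitlg, the KIT ligand, had 5.96 to 6.54 (median 6.34) against 5.47 to 6.21 (median 5.90), a difference of 0.40 ± 0.10. Nrp2, a co-receptor for VEGF-C, had 6.99 to 7.57 (median 7.24) against 7.44 to 8.01 (median 7.55), a difference of −0.35 ± 0.08. The groups overlapped in both. Nrp1, a co-receptor for VEGF-A, had a difference of −0.26 and Pdgfd, a ligand of PDGF receptor beta, −0.15. These 4, like all list members named below other than Esm1, are named for their unadjusted p, after their values were seen.

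Besides Esm1, the list of 28 VEGF-responsive endothelial genes held no gene that passed. At an unadjusted p under 0.05, 3 were higher (Esm1, Hey1 and Angpt2) and 4 lower (Plvap, Lyve1, Aplnr and Hey2). The shares of all genes were 3.94% and 3.02%, and the median of the list was −0.05. Plvap, the protein of fenestral diaphragms, had 9.03 to 9.44 (median 9.17) against 9.21 to 10.61 (median 9.50), a difference of −0.51 ± 0.18. The treated rats lay within a narrow range and the controls spread upwards from it. Angpt2, the angiopoietin that antagonises TIE2, had 5.51 to 7.17 (median 6.43) against 5.86 to 6.28 (median 6.13). Its difference was 0.39 ± 0.16, made up of −0.01 after TEM_vehicle and 0.78 after temsirolimus. Aplnr, the apelin receptor, and Hey2 had differences of −0.13 and −0.11.

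Pan-endothelial and sinusoidal genes mostly had small differences, more often below 0 than above. Of 36 endothelial identity genes 24 were below 0, with a median of −0.04. At an unadjusted p under 0.05 in limma, 0 were higher and 3 lower, beside 3.94% and 3.02% of all genes. The 3 were Pcdh17 (a protocadherin, −0.28), Esam (a junction protein, −0.17) and Ptprb (the endothelial phosphatase VE-PTP, −0.15). Summed as a mean signal, the list ran from 8.00 to 8.08 in treated and from 7.99 to 8.14 in control rats. Of 12 sinusoidal markers 9 were below 0, with a median of −0.04. The 2 lower at an unadjusted p under 0.05 were the scavenger receptor gene Stab2 (−0.20) and Lyve1, whose second probe set passed the test. In pieces of liver, fewer cells of a type and less RNA in each cell cannot be told apart.

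Of 11 signals from endothelium to hepatocytes 1 was higher (Angpt2) and 3 lower at an unadjusted p under 0.05. Those below 0 were Bmp2, which drives hepatocyte hepcidin (−0.21), Tgfb1 (−0.21) and Rspo3, a WNT amplifier of the central vein (−0.13). None of the 11 passed the test, and the shares of all genes at the unadjusted threshold were 3.94% higher and 3.02% lower.

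Markers of leukocytes mostly had differences below 0, and none passed the test. Of 20 Kupffer cell and macrophage markers 18 were below 0, with a median of −0.14 beside −0.003 for all genes. At an unadjusted p under 0.05, 2 were lower, Aif1 (−0.38) and the complement gene C1qb (−0.21), beside 3.02% of all genes. The mean signal of the list was 9.75 to 10.16 in treated and 9.82 to 10.69 in control rats, so the groups overlapped, and the highest value was that of 1 control, rat 1M4. Without this rat 13 of 20 were below 0, the median was −0.07 and 1 was lower, and the other controls reached 10.21. For 14 T and NK cell markers the counts were 0 higher and 3 lower (Cd8a, Cd3g and Lck, median −0.12), for 5 B cell markers 1 lower (Cd79b, median −0.14) and for 9 neutrophil markers 1 lower (Csf3r, median −0.13). Without rat 1M4 the medians were −0.06, −0.09 and −0.09, and without rat 1M9 that of the neutrophil markers was −0.07.

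Structural and parenchymal lists gave fewer. Of 20 stellate cell and fibroblast markers, 15 hepatocyte markers and 8 megakaryocyte markers, none reached an unadjusted p of 0.05 in limma, and the medians were −0.05, 0.003 and −0.01. Of 8 cholangiocyte markers 1 was higher (Epcam, 0.34), with a median of −0.01, beside 3.94% of all genes. Of 10 erythroid markers 1 was higher (Tfrc, the transferrin receptor, 0.42), while the other 9 were below 0 and the median was −0.07.

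Immediate early and feedback genes of the ERK pathway, which runs downstream of the inhibited receptors, had 21 of 25 differences below 0 and a median of −0.09. Of all genes 7307 of 14218 were below 0. At an unadjusted p under 0.05, 0 were higher and 5 lower, beside 3.02% of all genes lower, and none passed. Dusp1, a MAP kinase phosphatase, had 8.90 to 11.53 (median 10.16) against 10.38 to 11.97 (median 11.24), a difference of −0.84 ± 0.31. Myc had 6.37 to 9.01 (median 7.35) against 7.97 to 8.55 (median 8.23), a difference of −0.75 ± 0.22. Of the treated rats 7 lay below every control and 1, rat 5M51 (9.01), above every control. By first agent, the difference of Myc was −1.27 after TEM_vehicle and −0.24 after temsirolimus. The others were the immediate early gene Ier2 (−0.49), the cyclin gene Ccnd1 (−0.39) and Spry1, a feedback inhibitor of ERK signalling (−0.25).

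Among genes of bile acid synthesis and transport Cyp7a1 had the widest difference. Cyp7a1, the rate-limiting enzyme of bile acid synthesis, had 12.20 to 13.50 (median 12.64) after sunitinib and 10.55 to 12.92 (median 11.72) after water. The controls spread over more than 2 log2 units and overlapped the treated rats in their upper part. The difference was 0.97 ± 0.31 with adjusted p = 0.581 (limma), and was 0.97 after TEM_vehicle and 0.96 after temsirolimus. Of the 18 genes of bile acid synthesis and transport 3 were higher and 1 lower at an unadjusted p under 0.05. The shares of all genes were 3.94% and 3.02%. Those higher were Cyp7a1, the sterol 12-alpha-hydroxylase gene Cyp8b1 (0.35) and the bile acid ligase gene Slc27a5 (0.20). Abcg8, a sterol exporter, was lower with −0.73 ± 0.31, which was −0.08 after TEM_vehicle and −1.37 after temsirolimus.

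All 20 genes of cholesterol synthesis and uptake had differences below 0, from −0.33 (Sqle, squalene epoxidase) to −0.05 (Nsdhl), with a median of −0.18, and none reached an unadjusted p of 0.05 in limma. All 12 heat shock genes had differences above 0, from 0.01 to 0.16, with a median of 0.08, and again none reached it. Both rested in part on rat 7M76, without which 11 of 20 cholesterol genes were below 0 (median −0.005) and the median of the heat shock genes was 0.02. Genes of one pathway share their rats, so a common sign over a list rests on the same 16 livers and not on 20 or 12 separate measurements.

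Of 20 targets of the drug-sensing receptors CAR and PXR, 18 had differences above 0 (median 0.08). At an unadjusted p under 0.05, 3 were higher, beside 3.94% of all genes. The 3 were Aldh1a1, which makes retinoic acid (0.35), Alas1, the first enzyme of heme synthesis (0.31), and the carboxylesterase gene Ces2c (0.27). No member of the lists of 7 AhR targets or 18 NRF2 targets reached it in limma, with medians of −0.05 and −0.02.

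Among 23 fasting, insulin and FOXO genes 2 were higher and 3 lower at an unadjusted p under 0.05. The shares of all genes were 3.94% and 3.02%. Igfbp1, the insulin-repressed binding protein of insulin-like growth factors, had 9.96 to 11.13 (median 10.64) against 9.87 to 13.23 (median 11.48), a difference of −0.93 ± 0.37. The treated rats lay inside the wide range of the controls. Pck1, the gluconeogenic enzyme, and Irs2, an insulin receptor substrate, each had −0.20, and the regulators Klf15 and Foxo3 each had 0.36. Lists of fatty acid synthesis (20 genes, 1 higher and 1 lower) and of fatty acid oxidation and PPARA targets (26 genes, with Ppara itself higher by 0.25) had medians of −0.03 and −0.02. Without rat 7M76 the median of the first was 0.12.

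Of 24 acute phase genes 22 had differences below 0, with a median of −0.15. At an unadjusted p under 0.05, 1 was higher and 5 lower, beside 3.94% and 3.02% of all genes. The 5 were the cytokine gene Il1b (−0.48), the endotoxin-binding protein gene Lbp (−0.43), Nfkbia, the inhibitor of NF-kappa-B (−0.41), Hamp, which encodes hepcidin (−0.38), and Cebpd (−0.35). Il6r, the interleukin-6 receptor, was the 1 higher (0.37). None passed the test, and the leukocyte markers had differences on the same side, with medians between −0.14 and −0.12. Their part in these values was not tested.

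The remaining lists held few genes at an unadjusted p under 0.05 and none that passed. The shares of all genes were 3.94% higher and 3.02% lower. Of 26 proliferation genes 23 were below 0, with a median of −0.15 and 2 lower (Plk1 and Mcm2), and without rat 7M76 the median was −0.04. Of 13 growth hormone and IGF genes 2 were lower, Igfbp1 and Cish, a target of growth hormone signalling (−0.74, from −1.45 after TEM_vehicle and −0.03 after temsirolimus). The unfolded protein response had 2 of 19 lower, the glucocorticoid-responsive genes 1 higher and 2 lower of 17, the glycolysis and hypoxia genes 1 of 24 lower and the interferon-induced genes 1 of 22 lower (Irf1, −0.32). The p53 targets had 1 of 15 higher (Mdm2, 0.11). Pericentral genes had 1 of 17 higher (Cyp7a1) and periportal genes 1 higher and 1 lower of 14. The lists of 26 ATF4 targets, 19 ribosome biogenesis genes and 19 mTOR pathway components had none in limma, with medians of −0.04, 0.01 and 0.002.

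**Figure D3:**
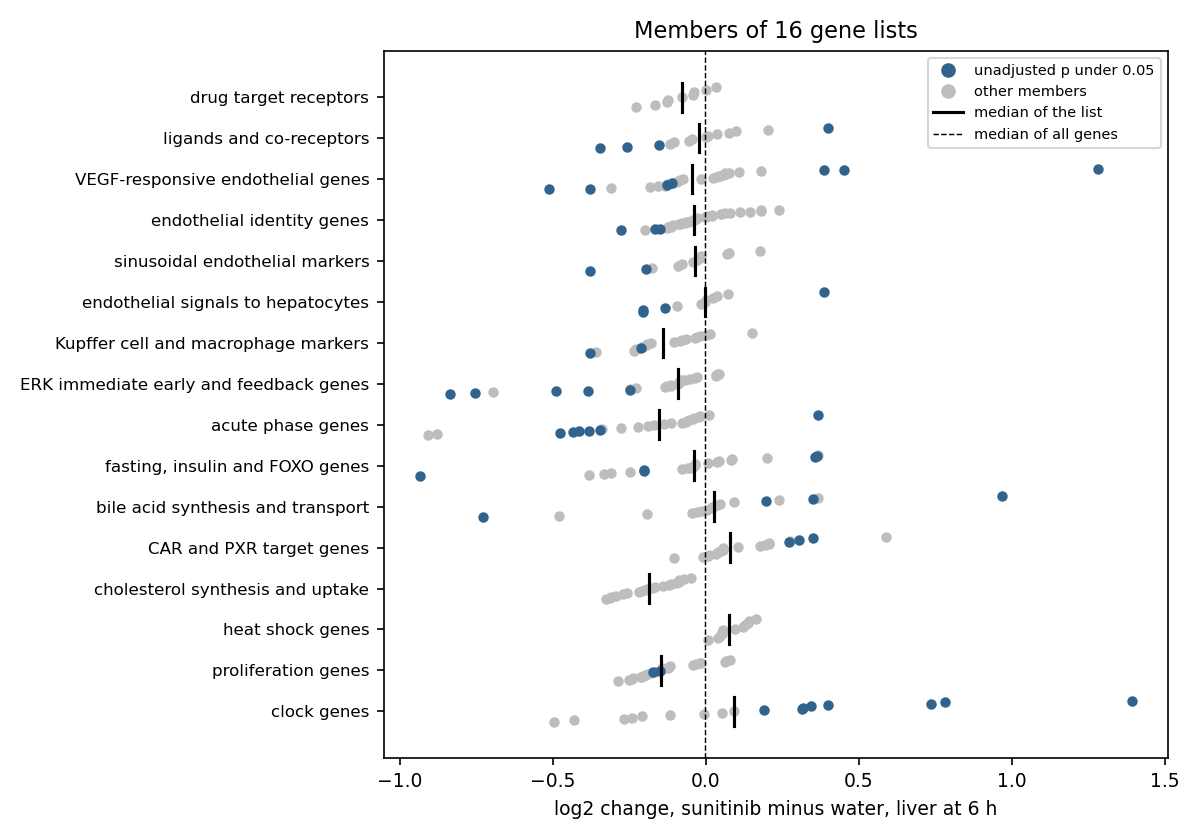
Log2 difference, sunitinib minus water, of every measured member of 16 gene lists in liver at 6 h. Each point is 1 gene, blue where the unadjusted p is under 0.05, and the black bar is the median of the list. Esm1 at 1.28 and Dbp at 1.39 are the highest points, and the cholesterol genes all lie below 0 (11 of 20 without rat 7M76).

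Of the 39 gene lists, the circadian clock list had the largest share of members at an unadjusted p under 0.05, 8 of 17, all higher, beside 3.94% of all genes, and none passed. The clock turns over once a day, so levels of these genes depend on the hour of killing. Dbp, a clock output transcription factor, had 8.16 to 10.65 (median 9.80) after sunitinib and 6.77 to 10.31 (median 7.84) after water. The highest controls, rats 3M33 and 3M34 (10.31 and 9.95, temsirolimus then water), lay among the treated rats. The difference of 1.39 ± 0.47 was the largest of any gene tested, and its adjusted p was 0.629 (limma).

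Nr1d1, the REV-ERB alpha repressor of the clock, had 8.83 to 9.88 (median 9.44) against 7.66 to 9.72 (median 8.77), a difference of 0.74 ± 0.18. Per3 (0.78 ± 0.29), Hlf (0.40), Nr1d2 (0.34), Bhlhe40 (0.32), Tef (0.31) and Cry2 (0.19) were the others. Bmal1, the activator that runs opposite to Dbp and Nr1d1, had 7.24 to 8.38 (median 7.69) against 7.13 to 8.75 (median 8.56), a difference of −0.50 ± 0.25 and an unadjusted p of 0.061 (limma). Of 15 clock genes with a promoter in RefSeq, 4 held the E-box CACGTG in any of their promoters (Bhlhe40, Bhlhe41, Nr1d1 and Tef). Of single rat promoters 6.42% hold it, a share per promoter and not per gene, so the 2 are not directly comparable. Bmal1 and Rora held GTAAACA, and none of the 15 held CGGAAGT or TGACGTC.

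The differences of Dbp, Bmal1 and Nr1d1 were unlike between the array sets, and those of Dbp and Bmal1 also between the first agents. Dbp differed by 2.16 after TEM_vehicle and 0.62 after temsirolimus, and by 2.40 in the first array set and 0.39 in the second. Bmal1 differed by −1.09 and 0.10 by first agent, and by −0.93 and −0.06 by array set. Nr1d1 differed by 0.73 and 0.74 by first agent, and by 1.20 and 0.27 by array set. In the fit over 96 liver arrays Dbp, Nr1d1 and Per3 passed the test, and in no other alternative. In livers of other rats at 1 h, 7 of 17 clock genes had an unadjusted p under 0.05 (limma, either direction), beside 825 of all 14218 genes. Their list had a median of −0.09 there. At 24 h 1 of 17 did, beside 404 of all genes, with a median of −0.10.

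The hearts of the same rats were read for the same genes. In heart, Dbp of the 2 control rats that were high in liver was 10.64 and 10.80, against 8.75 to 10.03 in the other 6 controls. Their Bmal1 was low in both tissues, 7.13 and 7.42 in liver and 6.02 and 6.63 in heart. In heart Dbp differed by 0.68 ± 0.21 and Bmal1 by −0.61 ± 0.25 between sunitinib and water, and 7 of 17 clock genes were higher and 2 lower at an unadjusted p under 0.05, beside 5.27% and 5.9% of all genes in heart, none past the test. Whether the rats were killed at the same hour was not tested, since no source used here gives it.

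**Figure D4:**
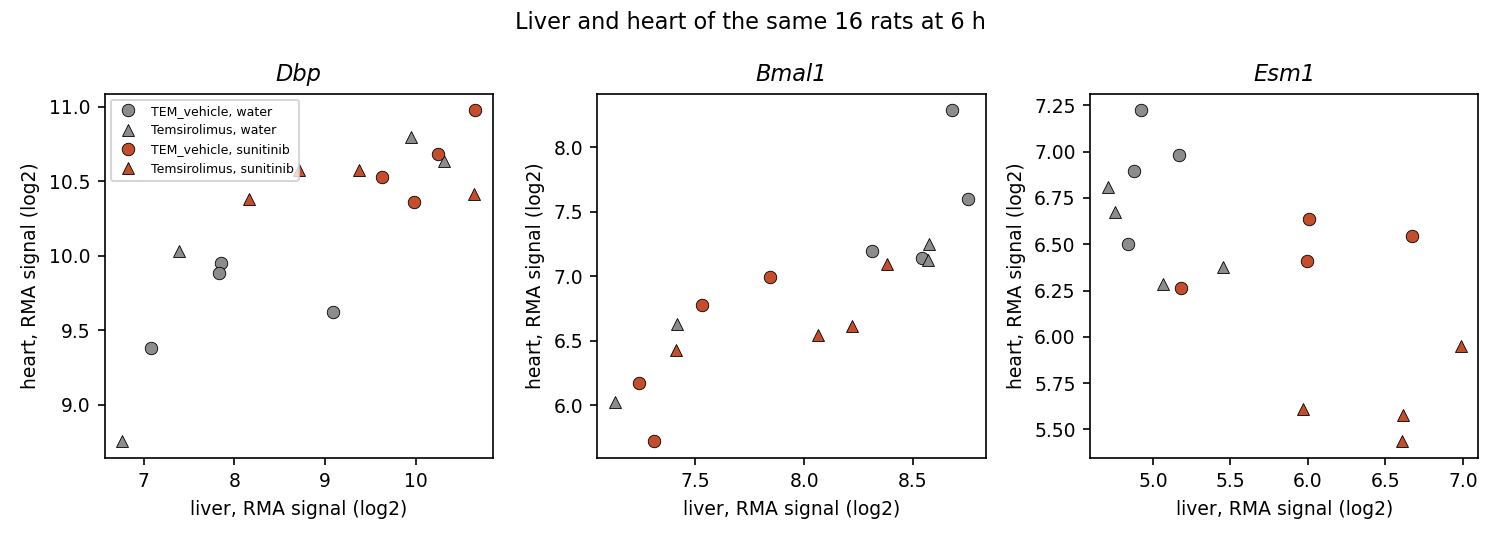
Log2 RMA signal in the heart (vertical) against that in the liver (horizontal) of the same 16 rats at 6 h for Dbp, Bmal1 and Esm1 (grey, water; red, sunitinib; circles, TEM_vehicle; triangles, temsirolimus). Rats with high Dbp or Bmal1 in liver tend to have high values in heart. Esm1 of sunitinib rats is mostly higher in liver and lower in heart than that of water rats, with overlap in both tissues. The lowest heart values are those of rats given temsirolimus then sunitinib.

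Whether temsirolimus given first altered the response to sunitinib was asked by the interaction of the agents. No gene passed the limma test of the interaction (0% of 14218 genes, 803 at an unadjusted p under 0.05). The Esm1 difference was 1.01 ± 0.25 after TEM_vehicle and 1.55 ± 0.23 after temsirolimus, and the interaction of 0.53 ± 0.37 had a 95% interval of −0.26 to 1.33. For Fam167b the values were −0.61 and −0.70, with an interaction of −0.09 ± 0.18 (−0.47 to 0.30). Between the array sets, Esm1 differed by 0.99 and 1.57 and Fam167b by −0.70 and −0.61. Interactions inside these intervals are not excluded.

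Sorafenib, another inhibitor of VEGF and PDGF receptors, was given at 25 mg/kg in F68/PG/PEG400, a mixture of Pluronic F68, propylene glycol and polyethylene glycol, so dose and vehicle both differ from those of sunitinib. Against its own vehicle, 105 genes (0.739%) passed in liver at 6 h, 60 higher and 45 lower. Esm1 was 6.52 to 7.42 (median 7.11) after sorafenib and 4.70 to 5.85 (median 4.98) after its vehicle, a rise of 1.86 ± 0.16, and the groups did not overlap. Fam167b was 8.13 to 8.65 (median 8.40) against 9.03 to 9.76 (median 9.36), and fell by 0.98 on the log2 scale (SE 0.09), with no overlap either.

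No gene passed the limma test of sunitinib against sorafenib (0% of 14218 genes, 654 at an unadjusted p under 0.05). The difference of the changes, sunitinib minus sorafenib, was −0.58 ± 0.25 for Esm1, with a 95% interval of −1.09 to −0.06, and 0.33 ± 0.13 for Fam167b (0.06 to 0.60). Both intervals leave out 0 on the side of a larger change after sorafenib, and neither difference passed the adjustment. Lyve1 fell by 0.50 on the log2 scale after sorafenib and Hey1 rose by 0.76, and both passed there. Their differences from sunitinib had intervals of −0.10 to 0.34 and −0.64 to 0.02. Of the 15 genes with the smallest p after sunitinib, Plek (−0.93), Arhgef26 (0.54), Fmo4 (0.53) and Plgrkt (0.31) also passed after sorafenib.

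The clock genes Dbp (1.39), Per3 (0.88) and Nr1d1 (0.92) passed the test after sorafenib, with Bmal1 at −0.65. Cyp7a1 had −0.12 after sorafenib, beside 0.97 after sunitinib, and for neither agent did it pass. The difference of these, sunitinib minus sorafenib, was 1.08 with an unadjusted p of 0.028 (limma).

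Other rats were killed at 1 and 24 h. At 1 h, Esm1 was 4.76 to 5.95 (median 4.94) after sunitinib and 4.36 to 5.20 (median 4.80) after water, a difference of 0.37 ± 0.17. At 24 h it was 4.56 to 4.99 (median 4.80) against 4.49 to 5.16 (median 4.72), a difference of 0.05 ± 0.10, with the groups fully overlapping. The 6 h difference exceeded that of 1 h by 0.91 ± 0.27 (95% interval 0.36 to 1.46, adjusted p = 0.818, limma) and that of 24 h by 1.23 ± 0.22 (0.78 to 1.69, adjusted p = 0.106, limma).

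For Fam167b, signal at 1 h was 9.40 to 9.82 (median 9.55) against 9.29 to 10.04 (median 9.71), a difference of −0.11 ± 0.10. At 24 h it was 8.16 to 9.67 (median 9.46) against 9.40 to 10.02 (median 9.74), a difference of −0.38 ± 0.18. Rat 7M78 alone gave the lowest value, and the other 7 treated rats had 9.31 to 9.67. Without it the 24 h difference was −0.20 ± 0.08. No gene passed at 1 h or 24 h (0% each), and none passed the limma tests of 6 h against 1 h (849 at an unadjusted p under 0.05) or against 24 h (879).

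**Figure D5:**
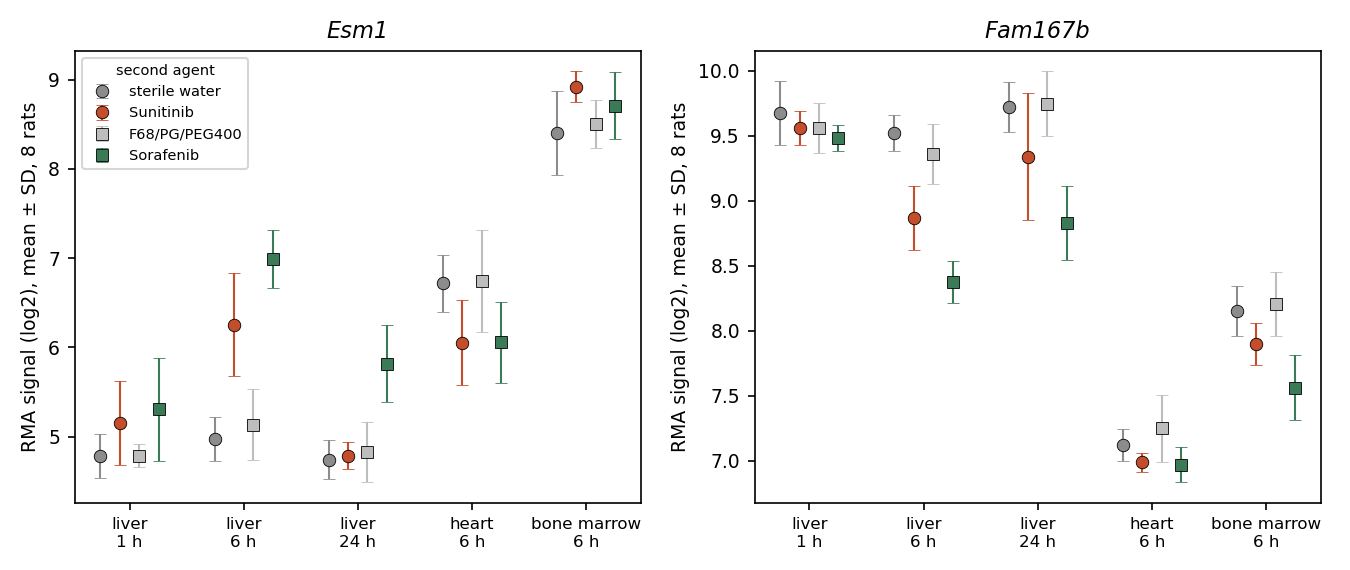
Mean log2 RMA signal with SD of Esm1 and Fam167b in 8 rats for each second agent, in liver at 1, 6 and 24 h and in heart and bone marrow at 6 h. Esm1 in liver is highest at 6 h after sunitinib and sorafenib and, in heart, lies below the vehicles after both.

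In the heart of the same 16 rats Esm1 moved the other way. It was 5.44 to 6.64 (median 6.11) after sunitinib and 6.29 to 7.23 (median 6.74) after water, overlapping between 6.29 and 6.64. The fall was 0.67 on the log2 scale (SE 0.12, adjusted p = 0.0261, limma). By first agent, mean heart signal was 6.46 after sunitinib against 6.90 after water with TEM_vehicle, and 5.64 against 6.54 with temsirolimus. Tested within rats, liver minus heart, the difference between the changes was 1.95 ± 0.23 (95% interval 1.47 to 2.43, adjusted p = 0.00218, limma), and it passed in every alternative in which it was tested. In bone marrow Esm1 was 8.60 to 9.14 (median 8.94) against 7.80 to 9.03 (median 8.45), a difference of 0.52 ± 0.15 that did not pass (adjusted p = 0.687, limma). Fam167b had −0.13 ± 0.05 in heart and −0.25 ± 0.06 in bone marrow, and neither passed.

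In all, 4 genes (0.0281%) changed differently in liver and heart, and 41 (0.288%) passed in heart on its own. Cyp26b1, which breaks down retinoic acid, rose by 1.01 ± 0.17 in heart, from a median of 5.86 to 6.77, and had −0.37 ± 0.21 in liver. Mcam, the endothelial adhesion protein CD146, fell by 0.59 on the log2 scale in heart and had 0.11 ± 0.07 in liver. Its liver to heart difference of 0.70 ± 0.11 did not pass in 12 of the 16 fits that left out 1 rat.

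Sult1a1, a sulfotransferase abundant in hepatocytes, rose by 1.08 ± 0.13 in heart and stayed at about 13.7 in liver, with 0.02 ± 0.05. The mean signal of 15 hepatocyte markers in the hearts was 5.83 to 11.50 (median 6.32) after sunitinib and 5.89 to 10.90 (median 6.05) after water, with hearts far above the median in both groups. Their part in the Sult1a1 value was not tested.

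Kdr fell by 0.62 on the log2 scale in heart (SE 0.09, adjusted p = 0.00712, limma) beside −0.12 in liver, but the difference between the tissues, 0.50 ± 0.13, did not pass (adjusted p = 0.300, limma). Nrp2 and Pcdh17 also passed in heart, with −0.65 and −0.60. Of the 28 VEGF-responsive genes 2 were higher and 8 lower in heart at an unadjusted p under 0.05, where 5.27% of all genes were higher and 5.9% lower. In liver the counts were 3 and 4, where the shares of all genes were 3.94% and 3.02%. The p-values of these comparisons set each difference against the spread between rats, moderated over genes by limma. Each rat gave 1 array per tissue, and the number of arrays limits the precision.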

How the data were processed

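The samples were liver arrays of single rats, with heart and bone marrow arrays of the same series used beside them. The authors deposited log2 values made by RMA, which corrects background, normalizes arrays together and summarises probes. No version or build is given in the sources used here. Of 31099 probe sets, the platform annotation listed 21268, of which 20832 had 1 gene symbol and 436 several, and 9831 were unnamed here. Of those with 1 symbol, 20764 matched RefSeq by gene ID. Each of 14218 genes was represented by its probe set of highest mean in liver. RMA shrinks differences of dim probe sets.

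Sunitinib was compared with sterile water by limma (version 3.58.1 in R 4.3.3) with first agent and array set as additive terms and Benjamini-Hochberg adjustment over all genes at 0.05. Differences of changes were fitted over 32 arrays with group means and array set, and liver against heart within rats. Since fewer than 10 genes passed, the 15 with the smallest p were named, with every target receptor and the genes called between comparisons. Of 753 members of 39 gene lists 680 were measured. The comparison, members and lists were chosen with earlier results of these data known. The fits were tested on simulated data. Alternatives were another normalization, a filter on low signal (mean of at least 6), other terms, arrays and weights, and leaving out each rat. No probe-level files were used.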

Additional observations from a re-analysis of the deposited data

Results flagged for a closer look

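The change by sunitinib differed between liver and heart of the same rats in 4 genes, by limma's test within rats. The difference, liver minus heart, was 1.95 for Esm1, −1.38 for Cyp26b1, −1.05 for Sult1a1 and 0.70 for Mcam. Sult1a1 lost its call without rat 7M75 (adjusted p = 0.0549, limma) and Cyp26b1 when liver and heart were fitted as independent arrays (adjusted p = 0.0767, limma).

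Among 108 groups of 4 rats, from the 27 genes named by rule, 9 had a rat far from the other 3, where about 5.4 would be flagged by chance at 1 in 20. Rat 7M76 (TEM_vehicle then sunitinib) stood apart in 3 of them, with Foxa1 at 8.48 (others 7.78 to 7.85), Plek at 8.35 (8.01 to 8.05) and Pdgfra at 8.30 (8.69 to 8.77). In the same group rat 7M82 had Flt4 at 7.29 (7.14 to 7.17). After temsirolimus then sunitinib, Hey1 was 8.27 in rat 5M52 (7.86 to 7.91), Manba 9.52 in 5M57 (9.30 to 9.31) and Mcam 7.14 in 5M51 (7.00 to 7.03). Among controls, Irf2bp2 was 10.37 in 3M27 (9.89 to 9.91) and Plgrkt 9.57 in 1M10 (9.13 to 9.20).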

How the results depend on the processing

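Of the 2 genes called, Fam167b was called in 16 of 28 alternatives and Esm1 in 9 of 27, with an unchanged direction in each. The number of genes called was 1 with the filter on low signal (which leaves Esm1 untested), 1 after quantile normalization again, 10 over all 96 liver arrays, 5 with array weights, 0 in the TEM_vehicle groups alone, 0 in the temsirolimus groups alone, 0 in the first array set alone and 1 in the second. Chosen after seeing the data, the product of first agent and array set as blocks gave 1 (Esm1 adjusted p = 0.0633, limma), and leaving out rats 1M9 and 7M76 together gave 8. Leaving out 1 rat at a time gave 0 to 4.

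For the interaction with temsirolimus leaving out 1 rat gave 0 to 2 genes (2 without 1M4). For sunitinib against sorafenib it gave 0 to 1 (1 without 2M21, 2M22, 8M93 or 4M39) and quantile normalization again gave 1. Against 1 h it gave 0 to 1 (1 without 5M58) and against 24 h 0 to 1 (1 without 7M76, 3M28 or 5M52). For liver against heart it gave 2 (without 7M75) to 7 (without 7M82), and quantile normalization again gave 7.

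Receptor differences near 0 changed sign. Kit was 0.015 after quantile normalization again, 0.12 in the TEM_vehicle groups alone and −0.042 to 0.019 with 1 rat left out. Pdgfrb was 0.032 with array weights and 0.11 in the temsirolimus groups alone, Ret 0.033 in the TEM_vehicle groups alone and Flt4 0.019 in the second array set alone. The causes were not tested. Liver and heart were paired within rats. Between treated and control rats the numbers could not serve. No paired analysis was possible because those groups share no rat number.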
